A study of Mus musculus with 8 samples.

Results

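The SR and hnRNP splicing factors were taken from a gene table of sorted muscle satellite cells (SCs) as the protein-coding genes whose symbol begins with Srsf and a number or with Hnrnp. This rule found 31 of 52636 rows, of which 11 were SR genes and 20 were hnRNP genes. The rule used names only and no measured value. RNA of SCs, sorted by FACS from the tibialis anterior of male C57B/6J mice aged 10 weeks at the start, was sequenced in 4 libraries of sedentary controls and 4 libraries of trained mice. Training was treadmill running at 12 m per min for 30 min on 4 days of each of 4 weeks. The sort kept cells negative for CD45, CD11b, CD31 and Sca1 that carried CD34 and integrin α7. Each library was amplified from about 800 sorted cells, using single-cell chemistry. The study's legends count mice as the replicates of the sequencing, but the labels do not tie a library to a mouse. The p-values measure the spread between these libraries, which may in part be technical.

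A pre-mRNA carries introns that the spliceosome removes, and the choice of exons depends on RNA-binding proteins that help or hinder it. SR proteins carry a domain rich in serine and arginine, bind mainly exonic enhancers and recruit the spliceosome, and are regulated by phosphorylation. The hnRNP proteins coat nascent RNA, and many of them oppose SR proteins by binding silencers, while others act in mRNA export, stability and translation. Both families are usually abundant in dividing cells, and the ratio between SR and hnRNP proteins is known to shift splice site choice.

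Values are FPKM, reads scaled to gene length and library size, which allows levels of different genes to be compared per length. A gene was tested where its mean over the 8 libraries was at least 1 FPKM, on log2(FPKM + 1) with limma, and was called where its Benjamini-Hochberg adjusted p over all 4328 tested genes was under 0.05. Between 2339966 and 3013354 reads fell on genes in a control library, and between 1011737 and 1200221 in an exercise library. Where a gene had no read, the limit used for its level is the FPKM that 3 reads would give, which covers counting error alone, since amplified reads are not independent molecules. The defining SC genes Pax7 and Itga7 had no read in any library, and Myf5 and Myod1 had reads in control only. Cd34, a marker of the gate, had 0.1196, 0.627, 1.48 and 1.27 FPKM in control 1 to 4 and 7.55, 9.63, 3.09 and 1.90 in exercise 1 to 4. Ly6a, which encodes Sca1 and was to be absent by the gate, had 0, 8.94, 2.76 and 2.71 FPKM in control and 7.44, 2.08, 5.24 and 0 in exercise. Of 14 SC markers, 8 had a read in control and 4 in exercise, and they summed to 58.6 to 76.9 FPKM and 79.0 to 125 FPKM. Of 14 myofibre markers, 13 had a read in control and 12 in exercise, and they summed to 42394 to 87996 FPKM and 20483 to 108838 FPKM. Of 10 fibro-adipogenic markers, which summed to 3045 to 4547 FPKM in control and 3620 to 9597 in exercise, 10 had a read in control and 9 in exercise. The 10 endothelial markers summed to 0.0925 to 2994 FPKM in control and to 4.42 to 26.2 in exercise, with reads of 3 and 2 of them and none of Pecam1 or Cdh5. The 12 blood cell markers summed to 0 to 70.9 FPKM in control and 0 to 1.56 in exercise, with reads of 2 and 1 of them and none of Ptprc or Itgam, and the 10 smooth muscle and pericyte markers to 2.88 to 46.1 and 5.72 to 89.3, with reads of 2 and 3 of them. The part of these cells in the results below was not tested, and in such bulk samples fewer cells of a type and less RNA per cell cannot be told apart.

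Some libraries stood in fixed relations to others. The read counts of exercise 1 and 2 were close, with a chi-square divided by its degrees of freedom of 2.88, where all other pairs of 1 group gave 56.4 to 412. For genes read 50 times or more in control 1 and absent from control 3, the share of reads in control 4 was 0.281 of that in control 1 (median), and for the converse genes it was 0.714 of that in control 3, a sum of 0.996. For exercise 3 the corresponding values were 0.299 against exercise 1 and 0.677 against exercise 4, a sum of 0.976. The labels list all 8 as separate samples. Whether these libraries are independent of each other cannot be told from the table, and an SD or test with n = 4 may count the same RNA more than once. The mitochondrial share of reads was 50.2% in exercise 3 and 68.7% in exercise 4, and 2.09% to 15.3% in the other 6 libraries. The FPKM of all genes summed to 2488142 in exercise 4 and to 331669 to 637095 in the other libraries, so a read there weighs more. The limit in exercise 4 was 1.23 to 6.30 FPKM over the 4 tested members that had no exercise read. Each called member is therefore also given with exercise 1 and 2 averaged and control 4 and exercise 3 left out, a fit of 3 control and 2 exercise samples called the reduced fit here, in which no gene of the table reached an adjusted p under 0.05 by limma and 469 had an unadjusted p under 0.05. The adjusted p of the 7 called members was 0.426 to 0.477 in that fit.

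Of the 31 members, 29 had a read in at least 1 library, and 16 passed the filter, namely 7 SR and 9 hnRNP genes. Among those 16, Srsf9 had the lowest mean over the 8 libraries, 1.04 FPKM, and Hnrnph2, with 0.764 FPKM, had the highest of the 15 that did not pass. In exercise 5 of the 16 were lower, Srsf2, Srsf3, Srsf11, Hnrnpk and Hnrnpl, and 2 were higher, Hnrnph1 and Hnrnpdl, at an adjusted p under 0.05. Of all genes tested, 35.6% were called, 26.8% lower and 8.78% higher, against 43.8%, 31.2% and 12.5% of the tested members. No exercise read was found for 4 of the 16 tested members, and for 30.4% of all genes tested. A member that passed the filter through its control values alone had to differ, so these shares describe the table and are not evidence about the families. The median log2 fold change was -1.28 over the 7 SR genes, -0.47 over the 9 hnRNP genes and -1.42 over all genes tested. With groups that held at most 3 reads in each library set to 3 reads, the medians were -0.64, -0.47 and -0.69. Quantile normalization moved the median of all genes to -0.44 and turned the split of calls. On that scale 1 SR gene and 4 hnRNP genes were called higher and no member lower, where 13.1% of all genes were called higher and 8.66% lower. Scaling to a constant FPKM sum moved the median of all genes to -1.69. None of the 7 called members changed sign on either scale, and each is given below also relative to the median of all genes on the deposited scale. That median is -1.42, and Hnrnph1 and Hnrnpdl would lie less far above the -0.69 found with 3 reads set.

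**Figure D1:**
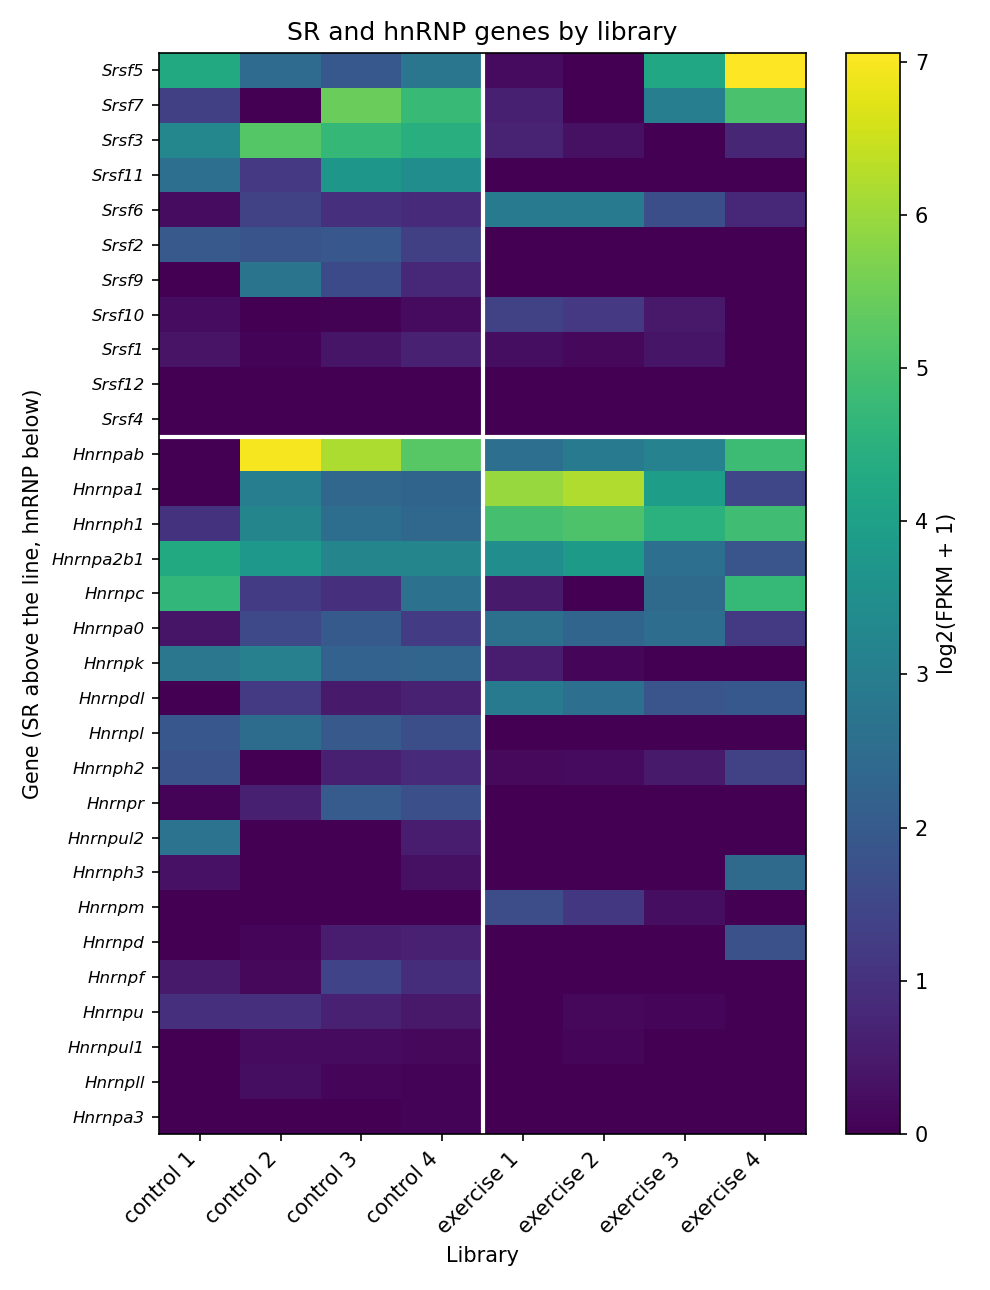
Heat map of log2(FPKM + 1) for the 31 members (vertical axis, ordered by mean within each family) in the 8 libraries (horizontal axis). The rows of Srsf2, Srsf11 and Hnrnpl are at 0 in all 4 exercise libraries, and Hnrnph1 is brighter on this scale in all 4 exercise libraries than in any control.

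The promoters of 4 of the 7 called genes are shown, 3 of genes that fell and 1 of a gene that rose. They are the 250 bases before the RefSeq start nearest to the start of the gene in the table, on GRCm38.p6, written 5′ to 3′ on the strand of the gene. Capitals mark a CCAAT box (CCAAT), a GC box (GGGCGG) or a TATA box (TATAAA), searched on both strands, with overlapping matches counted.
Srsf3, chr17:29032410-29032659, plus strand: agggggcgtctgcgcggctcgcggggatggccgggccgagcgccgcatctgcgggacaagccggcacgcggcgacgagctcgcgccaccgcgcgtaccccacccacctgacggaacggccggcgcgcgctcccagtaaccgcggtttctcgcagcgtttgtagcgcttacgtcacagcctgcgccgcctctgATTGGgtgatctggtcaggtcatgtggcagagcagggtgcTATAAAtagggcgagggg
Srsf2, chr11:116853095-116853344, minus strand: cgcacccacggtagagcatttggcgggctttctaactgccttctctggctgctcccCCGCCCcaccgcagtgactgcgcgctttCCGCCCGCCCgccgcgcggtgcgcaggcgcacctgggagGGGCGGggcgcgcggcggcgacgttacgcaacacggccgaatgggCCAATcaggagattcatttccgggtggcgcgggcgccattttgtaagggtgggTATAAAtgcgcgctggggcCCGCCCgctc
Hnrnpl, chr7:28810640-28810889, plus strand: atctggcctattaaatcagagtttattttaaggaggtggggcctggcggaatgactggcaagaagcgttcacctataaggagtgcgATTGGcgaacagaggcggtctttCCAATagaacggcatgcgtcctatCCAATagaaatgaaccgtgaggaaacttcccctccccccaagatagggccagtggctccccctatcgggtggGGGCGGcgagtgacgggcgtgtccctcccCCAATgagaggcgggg
Hnrnph1, chr11:50376740-50376989, plus strand: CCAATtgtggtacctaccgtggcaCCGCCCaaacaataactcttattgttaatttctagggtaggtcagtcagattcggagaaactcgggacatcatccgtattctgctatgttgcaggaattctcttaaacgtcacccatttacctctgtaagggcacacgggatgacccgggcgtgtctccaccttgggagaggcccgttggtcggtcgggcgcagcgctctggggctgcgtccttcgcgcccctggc
A CCAAT box was found in each of these 4 promoters, once in Srsf3, Srsf2 and Hnrnph1 and 4 times in Hnrnpl. Srsf2 held 5 GC boxes, Hnrnpl and Hnrnph1 held 1 each, and Srsf3 held none. The TATA box was found in Srsf2 and Srsf3. Of the promoters of all 7 called genes, 5 held a CCAAT box and 2, Srsf11 and Hnrnpdl, did not. Of 29 members matched by symbol, 15 held a CCAAT box (51.7%, against 35.3% of 19492 promoters), 23 a GC box (79.3% against 40.7%) and 3 a TATA box (10.3% against 12.0%). Among the 2990 promoters of genes tested, the shares were 34.9%, 60.9% and 7.26%. Of the 11 SR promoters 3 held a CCAAT box, and of the 18 hnRNP promoters 12 did. The RefSeq start of Hnrnpl lies 2349 bases from the start that the table gives, and no transcription start was measured here.

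Srsf3 fell by 3.97 on the log2(FPKM + 1) scale. It encodes the smallest SR protein, which also takes part in mRNA export and is known to limit its own level through an exon that triggers decay. Srsf3 (chromosome 17, 29032673 to 29043366 on mm10) had 8.70, 36.0, 24.8 and 20.5 FPKM in control 1 to 4 and 0.585, 0.245, 0 and 0.679 FPKM in exercise 1 to 4. Every exercise value lay below every control value, and 3 reads in exercise 4 would give 2.04 FPKM. Control averaged 22.5 ± 11.3 FPKM (SD, n = 4) and exercise 0.377 ± 0.313, which rests on 8 exercise reads. By limma the log2 fold change was -3.97 ± 0.66 (standard error, adjusted p = 0.00325), 2.55 below the median of all genes. The call held in each of the 8 fits that left out 1 library, with log2 fold changes of -4.34 to -3.70. In the reduced fit the change was -3.77 (unadjusted p = 0.0283 by limma, adjusted p = 0.426), and with quantile normalization it was -2.46 (adjusted p = 0.0519).

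Srsf11 and Srsf2 had no read in any exercise library. Srsf11 encodes an SR protein with a role in the recognition of the 3′ splice site, and Srsf2 (SC35) encodes a nuclear SR protein that is a classical marker of splicing speckles. Srsf11 (chromosome 3, 158010473 to 158036639) had 4.96, 1.24, 12.3 and 9.95 FPKM in control 1 to 4. Given 3 reads in each exercise library, the exercise mean was at least 14.3-fold lower, and at least 28.2-fold lower without exercise 4. The fit gave a log2 fold change of -2.73, a value set in part by the pseudocount (standard error 0.66, limma adjusted p = 0.0159), 1.31 below the median of all genes. The limit in exercise 4 was 1.23 FPKM, close to control 2. The call was lost without control 4 and without exercise 1, 2 or 3 (adjusted p of at most 0.0591), and in the reduced fit the change was -2.49 (unadjusted p = 0.0990). With quantile normalization the change was -1.77 (adjusted p = 0.0653).

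Srsf2 (chromosome 11, 116849901 to 116853094) had 2.95, 2.54, 2.77 and 1.53 FPKM in control, or 18 to 32 reads. The limit was 0.607 FPKM in exercise 1, 0.636 in exercise 2 and 0.915 in exercise 3, below every control, but 3.52 FPKM in exercise 4, above every control. The exercise mean was thus at least 1.72-fold lower and at least 3.40-fold lower without exercise 4. The fit by limma gave -1.76 ± 0.42 on the log2 scale (standard error, adjusted p = 0.0150), only 0.35 below the median of all genes. The call was lost without control 4 (adjusted p = 0.0505) and without exercise 1, 2 or 3 (at most 0.0666), and the change in the reduced fit was -1.91 (unadjusted p = 0.126). With quantile normalization the change was -0.60 (adjusted p = 0.216). Without control 1 the gene was under the filter. Srsf2 overlaps Mettl23 and Mfsd11 on the opposite strand, with 6520 and 58 reads, and the sources used here do not say whether counting used strand.

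Of the other SR genes tested, Srsf5, Srsf6, Srsf7 and Srsf9 did not pass the threshold. Srsf5 encodes an SR protein that binds exonic enhancers, and its exercise libraries spread the most, with 0.150, 0, 17.6 and 132 FPKM against 18.4, 4.50, 2.83 and 5.85 in control. The groups overlapped (log2 fold change 0.01, limma adjusted p = 0.996). Srsf7, a relative of Srsf3 with a zinc knuckle, had 1.53, 0, 42.4 and 26.2 FPKM in control and 0.525, 0, 7.12 and 31.97 in exercise, and each group held a library at 0 (adjusted p = 0.702). Srsf6 had 0.181 to 1.56 FPKM in control and 6.71, 6.65, 2.25 and 0.721 in exercise 1 to 4, and its change of 1.23 on the log2 scale missed the threshold (limma adjusted p = 0.154, standard error 0.67). It passed the threshold without exercise 4 and with quantile normalization (adjusted p = 0.0387). Srsf9 had no read in control 1 or in exercise and 5.53, 2.01 and 0.759 FPKM in control 2, 3 and 4, all below its limit of 6.30 FPKM in exercise 4 (limma adjusted p = 0.104). Without control 1 it passed the threshold (log2 fold change -1.70, adjusted p = 0.0176).

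The SR genes under the filter were Srsf1, Srsf4, Srsf10 and Srsf12. Srsf1, which encodes the founding SR protein (SF2/ASF), had only 1 to 13 reads per control library and 0 to 2 per exercise library (exact permutation p = 0.286). Srsf10, a splicing regulator that is activated by dephosphorylation, had 3, 0, 1 and 4 reads in control and 19, 14, 3 and 0 reads in exercise (exact permutation p = 0.143). Srsf4 and Srsf12 had no read in any library, where 3 reads were worth at most 2.92 and 3.31 FPKM, in exercise 4.

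**Figure D2:**
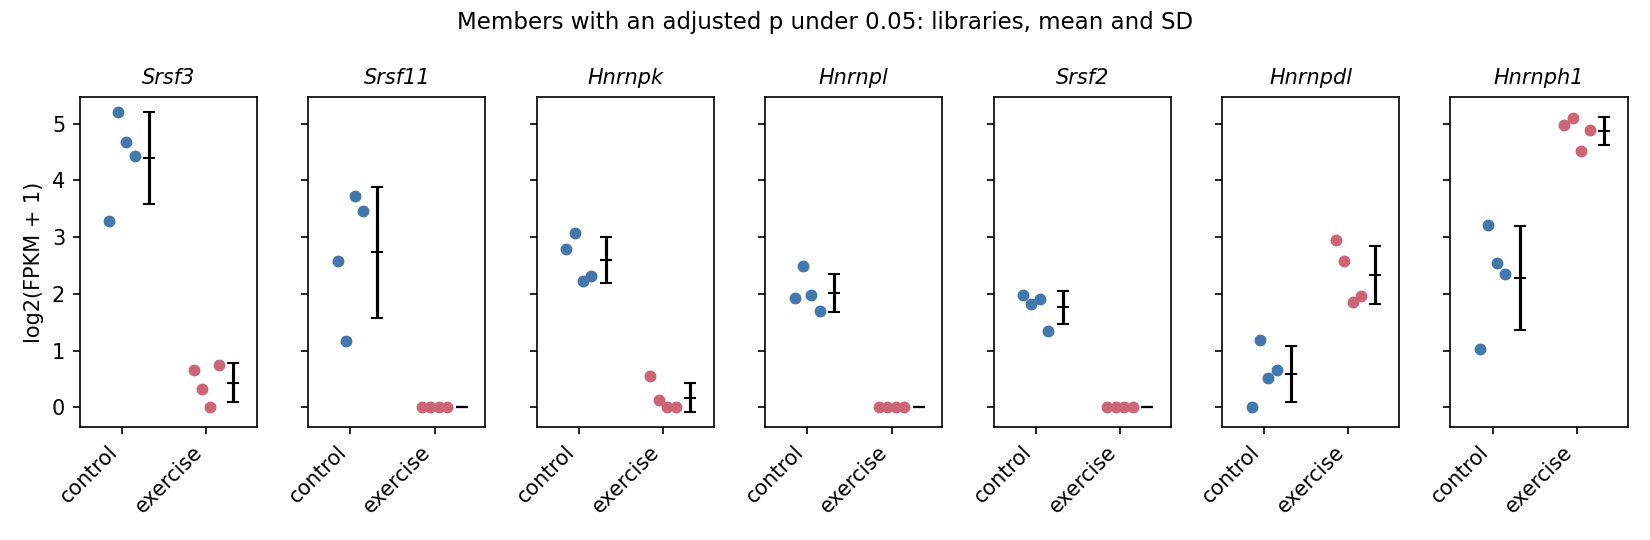
Values of the 7 called members as log2(FPKM + 1) on the vertical axis, with 1 point per library (control blue, exercise red) and the mean and SD of each group (n = 4) beside the points. The 5 genes on the left lie at or near 0 in exercise, whereas Hnrnpdl and Hnrnph1 lie higher in exercise, and the groups do not overlap on this scale in any of the 7.

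The hnRNP genes moved in both directions. Hnrnph1 encodes an hnRNP of the F/H group, which binds runs of G and can act as enhancer or silencer. Hnrnph1 (chromosome 11, 50376990 to 50386528) had 1.04, 8.33, 4.82 and 4.08 FPKM in control 1 to 4 and 30.7, 33.1, 21.9 and 28.5 FPKM in exercise 1 to 4. On this scale the exercise values all lay above the highest control, control 2. In reads per 1000000 (RPM) they were 283, 305, 118 and 41.5 in exercise 1 to 4, and the groups overlapped, since control 2 had 55.9. In reads per 1000000 that were not mitochondrial (nuclear RPM), the exercise libraries had 133 to 330 and the controls 6.11 to 62.9, with no overlap. The mean rose 6.25-fold, from 4.57 ± 2.99 FPKM (SD, n = 4) to 28.6 ± 4.82. By limma the log2 fold change was 2.59 ± 0.69 (standard error, adjusted p = 0.0233), 4.00 above the median of all genes, and it was 3.78 with quantile normalization (adjusted p = 0.00606). With each library scaled to a constant FPKM sum it was 1.99 (adjusted p = 0.105), and with voom on the recovered reads 2.46 (adjusted p = 0.0891). With a constant FPKM sum over all but the mitochondrial genes it was 2.52 (adjusted p = 0.0312). The adjusted p was 0.0547 to 0.0728 without control 3 or 4 or without exercise 1, 2 or 3, and the change in the reduced fit was 2.70 (unadjusted p = 0.101).

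Hnrnpdl encodes a relative of hnRNP D that binds AU-rich RNA. It lies on chromosome 5 from 100033577 to 100039664. It had 0, 1.29, 0.425 and 0.573 FPKM in control and 6.70, 4.94, 2.62 and 2.88 FPKM in exercise, where the value of exercise 4 came from 4 reads. In that library 3 reads would give 2.16 FPKM, above every control. The groups did not overlap on this scale, but in RPM exercise 4, with 3.46, lay below control 2, with 7.13, and control 4, with 3.94. In nuclear RPM the groups did not overlap, with 0 to 8.03 in control and 11.05 to 55.4 in exercise. The mean rose from 0.572 ± 0.536 FPKM (SD, n = 4) to 4.29 ± 1.92 (log2 fold change 1.74, standard error 0.57, limma adjusted p = 0.0410), 3.16 above the median of all genes. The adjusted p was 0.0855 to 0.106 without control 3 or 4 or without exercise 1, 2 or 3, 0.127 with a constant FPKM sum, 0.104 with voom and 0.0729 with no filter, but 0.0458 with a constant FPKM sum over all but the mitochondrial genes. With quantile normalization it was 0.0169, and the change in the reduced fit was 1.79 (unadjusted p = 0.175).

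Hnrnpk and Hnrnpl fell. Hnrnpk encodes a KH-domain protein that binds C-rich RNA and DNA and acts in transcription, splicing and translation. Hnrnpk (chromosome 13, 58391142 to 58403343) had 5.93, 7.42, 3.68 and 3.96 FPKM in control 1 to 4, 0.462 and 0.0969 FPKM in exercise 1 and 2, and no read in exercise 3 and 4. All control values were above its limit in exercise 4, 1.61 FPKM. Control averaged 5.25 ± 1.76 FPKM (SD, n = 4) and exercise 0.140 ± 0.220, from 6 reads. By limma the log2 fold change was -2.43 ± 0.52 (standard error, adjusted p = 0.0100), 1.02 below the median of all genes, and -0.71 with quantile normalization (adjusted p = 0.381). Leaving out 1 library ended the call only without exercise 3 (adjusted p = 0.0503), and the change in the reduced fit was -2.52 (unadjusted p = 0.0836).

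Hnrnpl encodes a protein that binds CA repeats and sets exon inclusion in many transcripts. Hnrnpl (chromosome 7, 28808541 to 28822266) had 2.78, 4.61, 2.93 and 2.23 FPKM in control and no read in exercise. Each control value exceeded the limit in exercise 4, 1.75 FPKM, so the exercise mean was at least 4.45-fold lower, and at least 8.78-fold lower without exercise 4. The fit by limma gave -2.02 ± 0.45 on the log2 scale (standard error, adjusted p = 0.0112), 0.60 below the median of all genes, and -0.81 with quantile normalization (adjusted p = 0.160). The call was lost only without exercise 3 (adjusted p = 0.0549) among the fits without 1 library, and the change in the reduced fit was -2.13 (unadjusted p = 0.106). In FPKM the groups of 7 of the 16 tested members did not overlap, 5 lower and 2 higher in exercise. Neither did those of 24.0% (lower) and 7.62% (higher) of all genes tested. These 7 were the called members, and the call and the separation rest on the same values. In RPM the groups of the 5 lower members were separate and those of Hnrnph1 and Hnrnpdl were not, against 25.9% and 5.06% of all genes tested. In nuclear RPM all 7 were separate, as were 23.4% (lower) and 7.16% (higher) of all genes tested.

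The A/B hnRNPs, among the most abundant proteins of the nuclear hnRNP particle, held 4 of the 5 hnRNP genes tested that did not pass the threshold. Hnrnpa1, whose protein opposes SR proteins at many splice sites, had 0, 7.15, 4.01 and 3.79 FPKM in control and 61.1, 73.8, 14.1 and 1.81 FPKM in exercise. Exercise 4, with 1 read, lay below 3 of the controls, and its change of 2.49 on the log2 scale had a limma adjusted p of 0.111 (standard error 1.16). It passed the threshold without exercise 4 and with quantile normalization (adjusted p = 0.0280). Hnrnpab had the highest mean of all members, with 0, 123, 72.4 and 36.5 FPKM in control and 4.94, 6.53, 7.78 and 27.4 in exercise. Control 1 alone lay below the exercise values, and without it the gene passed the threshold at a log2 fold change of -2.77, whereas with all libraries it did not (log2 fold change -1.23, standard error 1.42, limma adjusted p = 0.478). Hnrnpa2b1, which also sorts RNA for transport, was among the steadier members in FPKM, with 8.33 to 18.6 FPKM in control and 2.64 to 13.3 in exercise (adjusted p = 0.422). In RPM it had 71.0 to 120 in control and 103, 138, 30.0 and 4.33 in exercise 1 to 4. Hnrnpa0, which takes part in the stability of stress-response mRNAs, had 0.326 to 2.97 FPKM in control and 1.30 to 5.14 in exercise (adjusted p = 0.281), and 0.0362 with quantile normalization. Hnrnpc, a core protein of the particle that binds runs of U, had 24.6 FPKM in control 1 and 25.4 in exercise 4, with 0 to 5.16 FPKM in the other 6 libraries (adjusted p = 0.761). On the quantile scale the signs of Srsf7, Hnrnpa2b1 and Hnrnpc turned to higher in exercise, none of them past the threshold.

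The 11 hnRNP genes under the filter included 3 whose groups did not overlap, all lower in exercise, as were 9.02% of the 4701 genes with a read that were under the filter. Hnrnpr had 0.0589, 0.530, 3.08 and 2.32 FPKM in control and no read in exercise, and Hnrnpf, a partner of Hnrnph1 in the F/H group, had 0.429, 0.107, 1.68 and 0.906 FPKM in control and no read in exercise. The limit of Hnrnpf in exercise 4 was 3.42 FPKM, above every control, and the lowest control value of either gene was below its limit in every exercise library. Hnrnpu, whose protein binds the nuclear scaffold, had 0.940, 0.985, 0.552 and 0.389 FPKM in control and 0, 0.108, 0.0778 and 0 in exercise, from 3 exercise reads. Its limit in exercise 4, 0.897 FPKM, lay above control 3 and 4. Hnrnpll, Hnrnpul2 and Hnrnpa3 also had no exercise read. Hnrnpll had 7, 3 and 2 reads in control 2, 3 and 4, Hnrnpul2 had 5.48 FPKM in control 1 and 0.438 in control 4 alone, and Hnrnpa3 had 1 read in control 4. Hnrnpm was the only member listed at 0 in all controls with exercise reads, 17, 9, 1 and 0 of them. It overlaps March2 on the same strand, which had 2666 reads, so these few reads cannot be assigned with certainty. Hnrnpd, Hnrnph2, Hnrnph3 and Hnrnpul1 had means of at most 1.10 FPKM in either group, with overlapping groups.

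**Figure D3:**
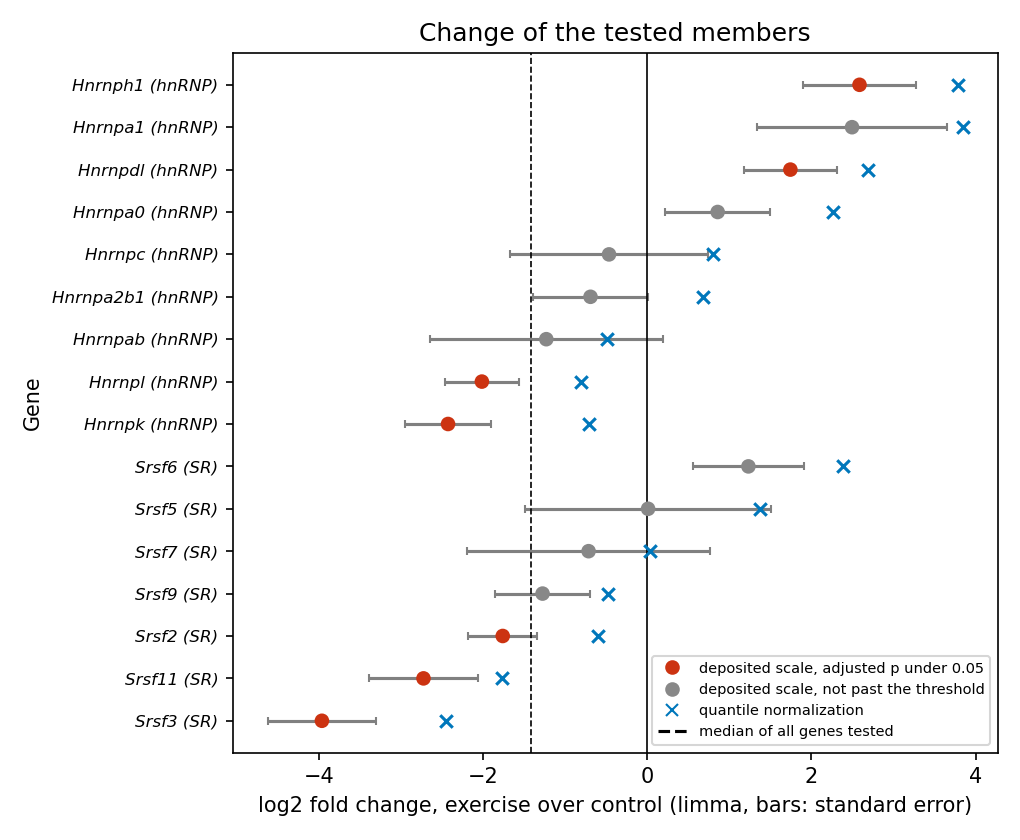
Log2 fold change of exercise over control (horizontal axis) for the 16 tested members (vertical axis), with circles and standard errors from limma on the deposited scale, crosses after quantile normalization, and a dashed line at the median of all genes tested, -1.42. The crosses of all 16 lie to the right of their circles, from -2.46 for Srsf3 to 3.84 for Hnrnpa1.

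The members that led each family differed between the libraries. Among SR genes, Srsf5 held 49.4% of the summed FPKM in control 1, Srsf3 held 69.99% in control 2, and Srsf7 held 48.0% and 39.5% in control 3 and 4. In exercise 1 and 2 Srsf6 led with 68.5% and 80.5%, and in exercise 3 and 4 Srsf5 led with 63.6% and 79.8%. Summed over the family, SR genes reached 60.8 ± 21.9 FPKM (SD, n = 4) in the control libraries, against 9.81, 8.25, 27.7 and 166 FPKM in exercise 1 to 4. In FPKM exercise 4 alone lay above the controls, whereas in RPM the family had 172 to 462 in control and 67.2 to 151 in exercise. In nuclear RPM the groups overlapped, with 176 to 545 in control and 85.1, 72.7, 189 and 483 in exercise 1 to 4. Between 7 and 9 of the 11 SR genes had a read in a control library, and 4 to 6 in an exercise library.

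Among hnRNP genes, Hnrnpab led in control 2 to 4, with 50.8% to 72.5% of the summed FPKM, and Hnrnpc led in control 1 with 39.1%. Hnrnpa1 led in exercise 1 and 2, with 50.2% and 53.7%, and Hnrnph1 in exercise 3 and 4, with 35.8% and 29.0%. The family summed to 103 ± 48.4 FPKM (SD, n = 4) in the control libraries and 105 ± 33.1 in the exercise libraries, and the ranges overlapped, as they did in RPM (306 to 696 and 97.8 to 764). Between 12 and 19 of the 20 genes had a read in a control library, and 10 or 11 in an exercise library, at the lower depth of the exercise libraries.

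**Figure D4:**
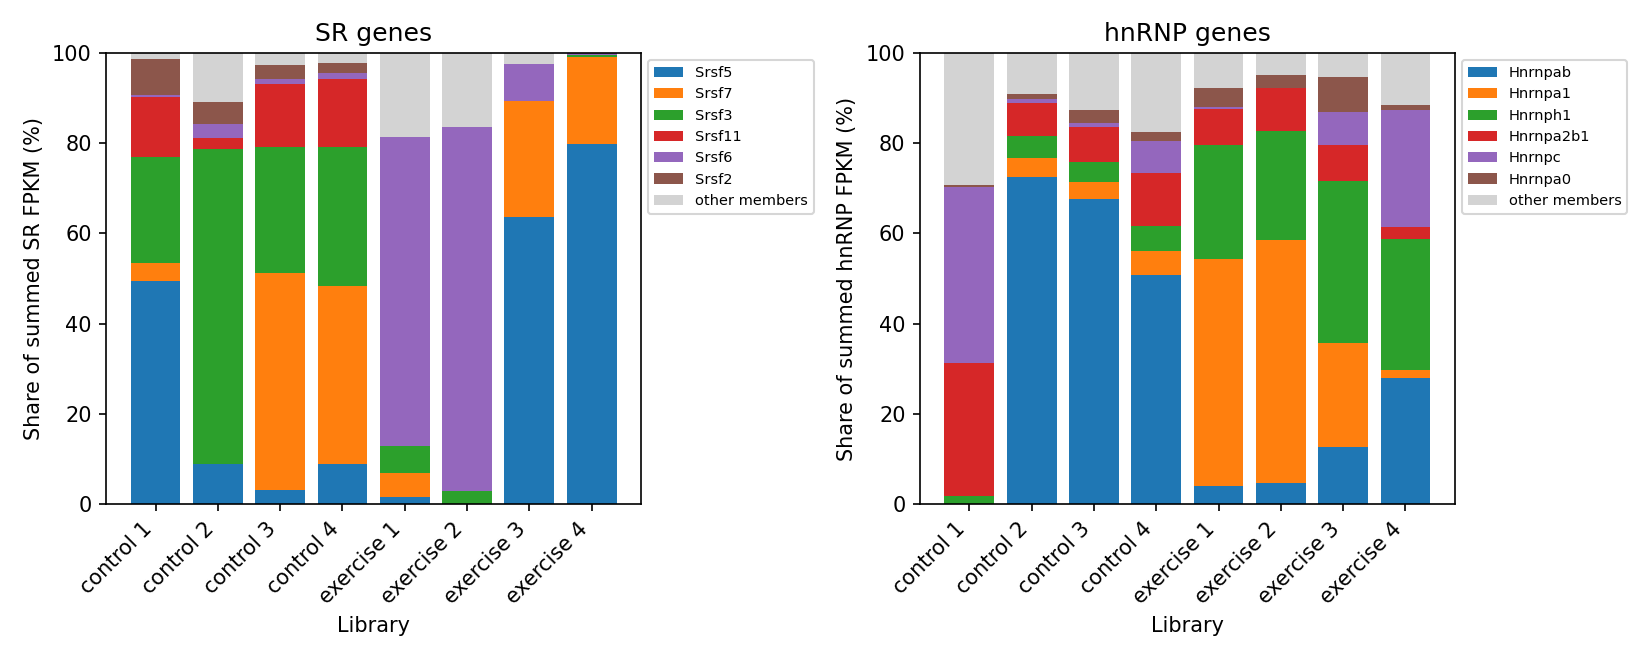
Share of the summed FPKM (vertical axis, in percent) that each of the 6 members with the highest mean took in each library (horizontal axis), for SR genes at left and hnRNP genes at right. Srsf6 (purple, left) and Hnrnpa1 (orange, right) took more than 50% in exercise 1 and 2 and less in exercise 3 and 4.

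Within the exercise group, 12 members had at least 10 reads in all. In 7 of them (Srsf6, Srsf10, Hnrnpa0, Hnrnpa1, Hnrnpa2b1, Hnrnpdl, Hnrnpm) the FPKM of exercise 1 and 2 averaged at least 2 times that of exercise 4, although Hnrnpdl lay above all controls in every library. In 4 (Srsf5, Srsf7, Hnrnpab, Hnrnpc) exercise 4 had at least 2 times the mean of exercise 1 and 2, and Hnrnph1 did neither. These counts are for FPKM. In RPM they differ for a pair of members, since Hnrnpab had 21.7 and 28.7 in exercise 1 and 2 and 19.04 in exercise 4, and Hnrnph1 had 283 and 305 against 41.5. In nuclear RPM Hnrnpab had 23.6 and 31.01 against 60.8, and Hnrnph1 308 and 330 against 133. Exercise 3 lay between exercise 1 and exercise 4 in 10 of the 12. Exercise 1 and 2 differed by a chi-square of 1.57 per member, over the 18 members with a read in either. Within the control group, control 1 and 3 differed by 5 times or more in 14 of the 25 members with at least 10 control reads, and control 4 lay between them in 19 of the 25. Exercise 3 and control 4 stood in the fixed relations to those libraries given above. The counts of values in between may restate that relation and are not evidence about the members. The mitochondrial share of reads was 7.85%, 7.56%, 50.2% and 68.7% in exercise 1, 2, 3 and 4, and its part in these differences was not tested.

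The rest of the splicing machinery was counted in 5 lists. Of 52 core proteins of the small nuclear ribonucleoproteins and the U2 complex, 26 were tested, and 4 were called higher and 6 lower, with a median log2 fold change of -0.89. Of 27 SR-related proteins 11 were tested, with 1 higher and 2 lower (median -0.47). Of 52 other splicing regulators 23 were tested, with 1 higher and 7 lower (median -1.69). Of 16 genes of the exon junction complex and mRNA export 8 were tested, with 3 lower (median -1.14). Of the 12 kinases and import receptors of SR and hnRNP proteins 3 were tested and none was called by limma. Over the 5 lists 24 of 71 tested genes (33.8%) were called, 8.45% higher and 25.4% lower, close to the 35.6%, 8.78% and 26.8% of all genes tested, and 36 had an unadjusted p under 0.05.

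The called gene with the lowest adjusted p in each direction is given for each list. Among them was Son, a scaffold of splicing speckles, which had 0.159 to 1.55 FPKM in control and 17.8 to 37.0 in exercise (log2 fold change 3.71, standard error 0.63, limma adjusted p = 0.00336). Sf1, which recognises the branch point, rose by 2.15 on the log2 scale (adjusted p = 0.0274), from 0 to 0.368 FPKM in control to 1.12 to 7.06 in exercise. Nova1, a regulator best known from neurons, had no read in control and 255, 224, 143 and 27.8 FPKM in exercise 1 to 4 (adjusted p = 0.000681). Ybx1, an mRNA packaging protein, had 524 to 749 FPKM in control and 4.63 to 13.7 in exercise (log2 fold change -6.39, standard error 0.63, limma adjusted p = 0.000448). Ddx39b, a helicase of splicing and export, had 65.1 to 132 FPKM in control and 0 to 0.632 in exercise (adjusted p = 0.000448). Snrpc, a protein of the U1 particle, had 41.5 to 564 FPKM in control and 0.558 to 4.23 in exercise (adjusted p = 0.00355). Luc7l, a relative of a yeast U1 protein, had 0 to 35.9 FPKM in control and no read in exercise (adjusted p = 0.0352). With quantile normalization these 7 genes kept their direction, and the adjusted p of Luc7l became 0.0606.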

How the data were processed

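The authors deposited FPKM for all libraries in 1 gene table, with coordinates on mm10 (GRCm38). According to the methods and the submitters' processing notes, reads were aligned with Bowtie 0.12.9, FPKM was computed with Cufflinks 2.1.1, reads were counted with HTSeq and tested with DESeq2. All deposited values, multiplied by gene length, were whole multiples of 1 step (tolerance 0.001), which gave the reads and the totals of 1011737 to 3013354. The library size behind the values was a median-of-ratios size factor times the geometric mean of the read totals. Rows sharing a symbol were summed (101 fewer rows).

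Groups came from the labels. Genes averaging 1 FPKM or more over the 8 libraries were fitted on log2(FPKM + 1), whose pseudocount shrinks changes of low genes, with limma 3.58.1 in R 4.3.3 (trend, Benjamini-Hochberg), after a test on simulated data. Exact permutation tests covered 70 assignments (Python 3.11.15, scipy 1.17.1). Values in every library are given for called members, members with separate groups, the 3 highest of each family and members without reads in a group, and for each machinery list the called gene with the lowest adjusted p in each direction. The members, lists and tests were chosen with earlier results of these data known. Of the members, 31 of 31 identifiers were found in GENCODE M21, 26 with the same coordinates, and 29 had a RefSeq promoter (GRCm38.p6). Alternatives were another pseudocount (0.1), 2 filters, quantile, constant-sum and nuclear-sum scaling, voom on the recovered reads, a replicate block, no trend, 1 row per symbol, each library left out and fits with fewer samples. The share of reads, with and without mitochondrial reads, was added as a scale after seeing the data. Other assays of the study were not analysed here.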

Additional observations from a re-analysis of the deposited data

Results flagged for a closer look

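Each member and each family sum was searched in each group of 4 libraries for a single distant value. Of 52 such groups with any difference, 4 held one. In each of these the other 3 libraries had no read, which meets the rule whatever the distant value is. The rate of about 1 in 20 that chance gives for such a search therefore does not apply to them. Hnrnpd and Hnrnph3 had a log2(FPKM + 1) of 1.75 and 2.43 in exercise 4, from 5 and 4 reads, and 0 in exercise 1 to 3. Hnrnpul1 had 0.101 in exercise 2 and Hnrnpa3 had 0.0656 in control 4, each from 1 read against 0 in the other 3 libraries of the group.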

How the results depend on the processing

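Under the 20 alternatives the 7 called members kept their direction in all 139 values that could be computed, and in 45 of these the adjusted p was no longer under 0.05, counting the fits with fewer libraries. The number of called members depended on the scale and on the libraries. All genes called numbered 1541, against 840 with no filter, 941 with quantile normalization, 596 with exercise 1 and 2 averaged and 0 in the reduced fit. SR genes called numbered 3, against 1 with quantile normalization, 1 with exercise 1 and 2 averaged and 0 in the reduced fit, where 1 had an unadjusted p under 0.05. hnRNP genes called numbered 4, against 2 with a constant FPKM sum and 2 with voom (both lower in each), 3 with no filter (without Hnrnpdl), 2 with exercise 1 and 2 averaged and 0 in the reduced fit, where 0 had an unadjusted p under 0.05 by limma. Called genes of the 5 machinery lists numbered 24, against 10 with no filter, 8 with exercise 1 and 2 averaged and 0 in the reduced fit, where 7 had an unadjusted p under 0.05. The SR median of -1.28 was -3.33 with a pseudocount of 0.1, -0.72 with no filter, -0.48 with quantile normalization and -2.24 with voom. The hnRNP median of -0.47 was 0.80 with quantile normalization, -1.12 with a constant FPKM sum and 0.093 with exercise 1 and 2 averaged. On the share of reads, a scale added after seeing the data, 5 tested members had separate groups, against 7 in FPKM and 7 without mitochondrial reads. The cause of these shifts was not tested.

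Without 1 library, the calls ranged from 527 to 1899 for all genes (527 without exercise 3, 569 to 1003 without control 2, 3 or 4 or exercise 1 or 2), from 1 to 4 for SR genes (1 without control 4 or exercise 1, 2 or 3), from 0 to 5 for hnRNP genes (2 without control 3 or 4 or exercise 1 or 2) and from 8 to 32 for the machinery lists (8 to 12 without control 2, 3 or 4 or exercise 1, 2 or 3). Without exercise 3 no hnRNP gene was called by limma, and 4 had an unadjusted p under 0.05. The SR median ranged from -1.71 to -1.01. The hnRNP median ranged from -0.70 to 0.30, and was 0.30 without control 1, 0.0023 without exercise 1 and 0.17 without exercise 2. With the replicate number as a block, 2 SR genes and 1 hnRNP gene were called (Srsf3, Srsf11 and Hnrnpk), 1059 of all genes and 16 of the machinery lists. Same-numbered libraries had correlations of deviations between -0.0169 and 0.0393, and all pairs lay between -0.0381 and 0.0393. Exercise 2, 3 and 4 each correlated best with the control of the same number (0.0393, 0.0171 and 0.0161), and exercise 1 with control 2 (0.0385). Values this small cannot decide whether the libraries were paired. In FPKM, 3 reads in exercise 4 exceed every control value of several members, at a size factor of 0.167 for that library. Among the tested members these were Srsf2, Srsf6, Srsf9, Hnrnpa0 and Hnrnpdl, of which Srsf2 and Hnrnpdl were called. Hnrnpf was among those under the filter.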
